A study of Caenorhabditis elegans with 27 samples.

Results

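The fbxa genes are the F-box A family of the nematode Caenorhabditis elegans. Members were taken as the genes whose symbol in the deposited count table starts with fbxa-, which gives 222 of 46738 genes. Of these, 169 passed a filter on low counts and were tested among 16435 genes, and 53 were not tested, including 7 with no count in any library. The filter asks for about 0.363 CPM (counts scaled to a common library total) in at least 3 libraries. The annotation lists 170 members as protein coding, of which 132 were tested, and 52 as pseudogenes, of which 37 were tested.

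An F-box protein is a substrate adaptor. Its F-box binds a Skp1-related protein (an SKR protein in worms), which joins it to a cullin and a RING protein, and the assembled SCF ligase attaches ubiquitin to the protein that the rest of the adaptor recognises. Nematodes carry very large and fast-evolving F-box families, and most fbxa proteins have no assigned substrate. Among the exceptions, FBXA-75 and FBXA-158 have been reported as adaptors of a ligase built on the cullin CUL-6 with SKR-3, SKR-4, SKR-5 and the RING protein RCS-1. The genes of that ligase belong to the intracellular pathogen response, a set of worm genes induced by microsporidia, by the Orsay virus and by blocked proteasomes, and fbxa-182 is listed with them.

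The 27 libraries hold poly(A) RNA from whole worms in 9 groups of 3. Every group is strain N2, labelled wild-type and carrying, by the series design, an hsp-6::GFP reporter of mitochondrial stress. All worms ate Escherichia coli HT115 from the egg, were kept at 20 °C and were taken at 2 days, at the L4 to young adult stage. The control group received the empty vector. Others received clones against cbp-1 (worm CBP/p300, a histone acetyltransferase and coactivator), atfs-1 (a transcription factor of the mitochondrial unfolded protein response), cco-1 (a subunit of cytochrome c oxidase) or mrps-5 (a mitochondrial ribosomal protein). The cco-1 and mrps-5 groups held 50% of that clone and 50% empty vector. In the 4 mixtures, the 50% of cco-1 or mrps-5 clone was joined by 25% cbp-1 clone with 25% empty vector, or by 50% atfs-1 clone. No share is given for the cbp-1 or atfs-1 clone alone, so doses of these clones alone and in mixtures may differ. RNAi by feeding lowers a transcript in whole worms by an amount that varies with the clone and the tissue. The labels do not say that replicates are separate cultures, so p-values measure only spread among libraries, perhaps technical.

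Gene counts summed to 20672073 to 30938572 per library, of which 16637 to 33353 fell on fbxa genes. The 3 empty vector, the 3 cbp-1 and the first atfs-1 library form a set with low rpl-37 (log2 CPM of 2.76 to 3.48, against 5.28 to 5.91 in the other 20). Comparisons of cco-1, mrps-5 and atfs-1 with the empty vector cross these sets, and each is therefore also given from a fit with a library-set term, which rests on the atfs-1 group. The comparisons of cbp-1 with the empty vector, and of each mixture with its own cco-1 or mrps-5 group, lie within 1 set. Of the targeted transcripts, cco-1 was at 169 CPM under its clone against 302 CPM under the empty vector, a comparison that crosses the sets. It was also at 215 CPM under mrps-5, in the same set as cco-1, and ran from 191 to 309 CPM among the atfs-1 libraries, which lie in both sets. mrps-5 was at 83.2 CPM under its clone against 105 CPM under the empty vector and 107 CPM under cco-1. cbp-1 was at 208 CPM under its clone against 269 CPM under the empty vector. In the mixtures, cbp-1 was at 276 CPM against 325 CPM under cco-1, and at 275 CPM against 321 CPM under mrps-5. With the cbp-1 clone, cco-1 was at 222 CPM alone and 115 CPM in the cco-1 mixture. mrps-5 was at 93.3 CPM under cbp-1 alone and 68.1 CPM in the mrps-5 mixture. The cbp-1 mixtures thus also held less of the cco-1 or mrps-5 transcript than the group without the cbp-1 clone. In the atfs-1 mixtures, cco-1 was at 183 CPM with its clone and mrps-5 at 85.2 CPM with its own. The atfs-1 count was not lower in the libraries labelled atfs-1 RNAi (90.5 against 77.7 CPM). For each targeted gene, reads from the ingested clone and from the worm transcript cannot be told apart.

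Most fbxa genes were expressed at low levels. The median over the 169 tested members was 1.92 CPM, against 9.14 CPM over all tested genes, and 1.59 against 7.17 CPM per kilobase of exon. Only 34 of the tested members averaged 5 CPM or more and 14 averaged 10 CPM or more. On the per-length scale, fbxa-215 (WBcel235, as for all coordinates here, chromosome IV, 13665364 to 13666909, minus strand, protein coding) led at 142 CPM per kilobase, followed by fbxa-101 (chromosome I, 12958640 to 12959932) at 31.5 and fbxa-210 (chromosome V, 18125375 to 18127205) at 29.9. These abundant members were nearly flat. The group means of fbxa-215 ran from 186 to 198 CPM, a ratio of 1.06 between the highest and the lowest group, and the ratios of fbxa-101 and fbxa-210 were 1.16 and 1.18. Of the 169 tested members, 93 had at least a 2-fold ratio between their highest and lowest group mean and 37 had at least a 4-fold ratio. These counts include members with few reads, where counting error alone widens such a ratio over 9 groups. Members tested only through the cbp-1 clone are also included. The ratios were not taken over all tested genes. Of all 169 tested members, flat ones included, 98 had their highest group mean in a group with the cbp-1 clone and 27 in the mixture of cco-1 with atfs-1. Of the 9 groups, that clone was in the cbp-1 group and in the mixtures with cco-1 and mrps-5. The 98 include members, such as fbxa-75, that passed the filter only through the clone, and no share over all tested genes was computed.

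Summed over all 222 members, fbxa transcripts made up 744 ± 9.12 CPM (SD, n = 3) under the empty vector and 998 ± 17.8 CPM under cbp-1. The sum went from 757 ± 11.1 to 915 ± 16.1 CPM when cco-1 was joined by the cbp-1 clone, and from 732 ± 9.15 to 931 ± 54.4 CPM when the clone was added to mrps-5. In each of these pairs the 3 libraries with the cbp-1 clone lay above the 3 without it. The remaining groups lay between 737 CPM (atfs-1) and 823 CPM (cco-1 with atfs-1).

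**Figure D1:**
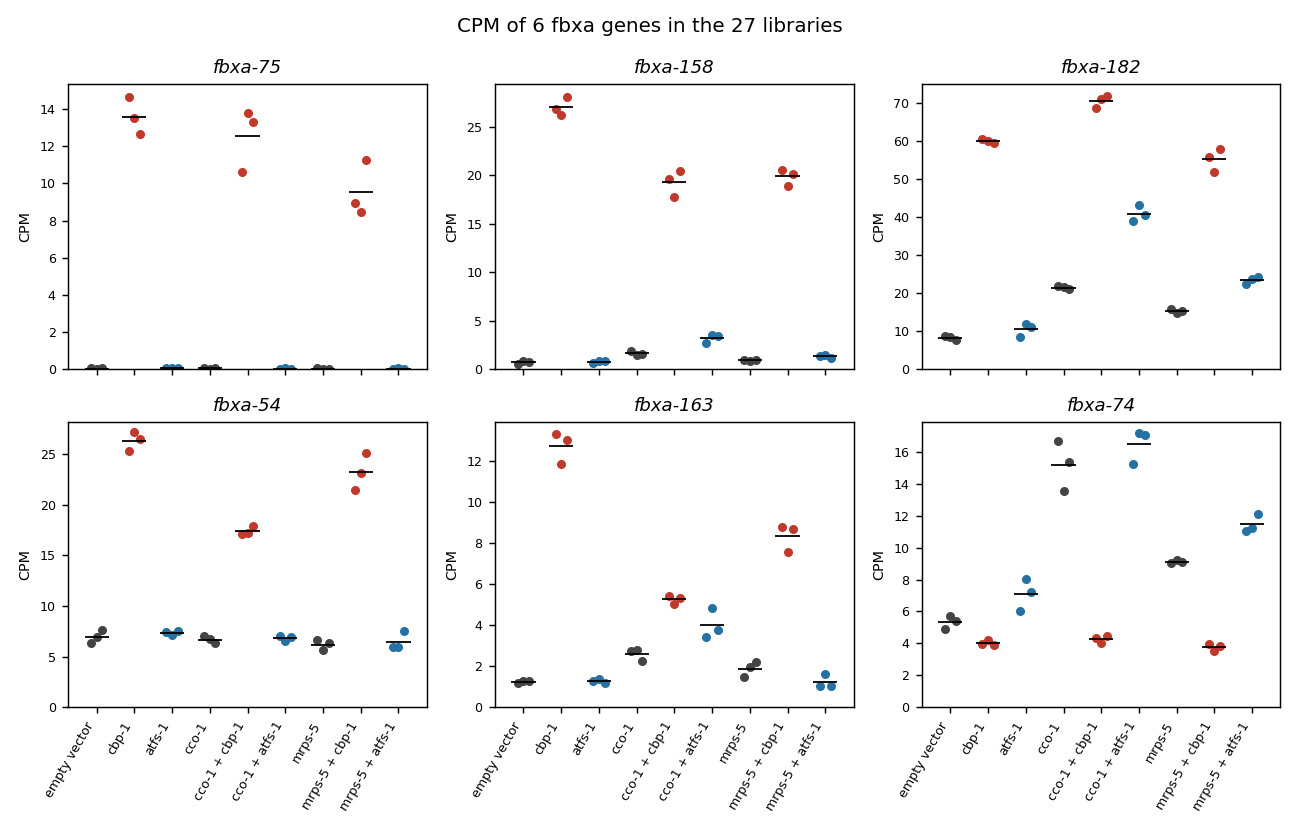
CPM (y axis) of fbxa-75, fbxa-158, fbxa-182, fbxa-54, fbxa-163 and fbxa-74 in each library (points), by RNAi group (x axis), with the group mean as a bar and with groups that hold the cbp-1 clone in red and the atfs-1 clone in blue. The first 5 genes were highest in groups with the cbp-1 clone, with fbxa-75 at 8.48 CPM or more there and at 0.0856 CPM or less in every other library, and fbxa-74 was lowest in those groups.

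The widest difference belonged to fbxa-75 (chromosome III, 1303714 to 1305461, plus strand), the adaptor named above. Its CPM were 0.0350, 0 and 0.0381 in the 3 empty vector libraries and 14.6, 13.5 and 12.6 in the 3 cbp-1 libraries. They were 0.0390, 0 and 0.0704 under cco-1 and 10.6, 13.8 and 13.3 under cco-1 with cbp-1. Under mrps-5 they were 0.0717, 0 and 0, and under mrps-5 with cbp-1 8.92, 8.48 and 11.3. The 9 libraries with the cbp-1 clone thus stood apart from all 18 others, which held between 0 and 2 reads each. Against 2 reads in all 3 empty vector libraries, the cbp-1 group held 1217, a ratio of 540.1 after scaling to library size (95% exact interval for counting error only, 149 to 4465). Adding the clone to cco-1 took the gene from 3 to 1212 reads (ratio 333, 114 to 1615), and to mrps-5 from 2 to 712 (ratio 355, 98.0 to 2939). Since fbxa-75 entered the tested genes only through the libraries with the cbp-1 clone, its difference is given as a description, with no test. With 1 to 4 reads a group elsewhere, no change of fbxa-75 under cco-1, mrps-5 or atfs-1 was detectable at this depth.

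fbxa-158 (chromosome II, 1619814 to 1621280, minus strand), the other reported adaptor of the CUL-6 ligase, read 0.525, 0.864 and 0.724 CPM under the empty vector and 26.8, 26.2 and 28.1 CPM under cbp-1. It went from 1.83, 1.46 and 1.58 CPM under cco-1 to 19.6, 17.7 and 20.4 CPM with the cbp-1 clone, and from 0.932, 0.834 and 0.943 CPM under mrps-5 to 20.6, 18.9 and 20.2 CPM. No library with the clone overlapped one without it. The rise was 5.27 ± 0.11 (log2 fold change ± standard error, edgeR adjusted p = 8.37e-33) against the empty vector, 3.56 ± 0.10 (1.22e-28) against cco-1 and 4.45 ± 0.12 (1.01e-29) against mrps-5.

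fbxa-182 (chromosome II, 2409633 to 2412749, minus strand) was the most abundant of these 3 members. Under the empty vector it read 8.82, 8.40 and 7.70 CPM, and under cbp-1 60.8, 60.2 and 59.5 CPM, a log2 rise of 2.85 ± 0.07 (edgeR adjusted p = 1.36e-31). With the cbp-1 clone it reached 68.8, 71.2 and 72.0 CPM in the cco-1 mixture and 55.9, 52.0 and 58.1 CPM in the mrps-5 mixture. It was also higher under cco-1 (21.8, 21.5 and 21.1 CPM) and mrps-5 (15.8, 14.8 and 15.4 CPM) than under the empty vector, without overlap. The log2 rise under cco-1 was 1.37 ± 0.08 (0.94 with the library-set term, edgeR adjusted p = 9.37e-08), and under mrps-5 0.89 ± 0.08 (0.46 with the term, adjusted p = 0.0185). Whether fbxa-75 changed likewise could not be seen at its few reads in these groups.

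The other genes of that ligase rose alongside these adaptors. The cullin gene cul-6 went from 6.36 to 21.7 CPM under cbp-1, skr-3 from 29.9 to 154 CPM, skr-4 from 20.3 to 112 CPM, skr-5 from 1.10 to 29.4 CPM and rcs-1 from 14.7 to 35.9 CPM (all n = 3). All 7 genes of the ligase list, which includes fbxa-75 and fbxa-158, were called higher in each of the 3 cbp-1 comparisons. Their median log2 changes were 2.46, 2.49 and 2.38. Because fbxa-75 was tested only through the clone, its call and its part in these medians are description, not a test. Of all tested genes, 30.2%, 21.9% and 19.4% were called higher in these comparisons and 28.5%, 25.3% and 23.4% lower. The general SCF cullin cul-1 was at 193 CPM under the empty vector and 195 CPM under cbp-1 and the RING gene rbx-1 at 114 and 121 CPM, and neither was called against the empty vector or against either clone. The general Skp1 gene skr-1 was called higher in all 3, going from 196 to 251 CPM under cbp-1, from 188 to 234 CPM in the cco-1 mixture and from 187 to 225 CPM in the mrps-5 mixture. Over the 24 tested SCF core genes (the skr genes with cul-1, cul-6, rbx-1 and rbx-2), 8 were called higher and 6 lower under cbp-1 (median log2 change -0.01). Adding the clone gave 16 and 2 with cco-1 (median 0.36) and 13 and 1 with mrps-5 (median 0.33). These core genes include cul-6, skr-3, skr-4 and skr-5 of the ligase list, so the counts overlap. The pals genes are another large worm family of the intracellular pathogen response. Of 34 tested members, 30 were called higher and 0 lower under cbp-1 (median log2 change 3.55). Their marker pals-5 went from 0.10 to 12.4 CPM. It was at 0.263 CPM or less in every library without the clone, below the filter's cutoff of about 0.363 CPM. It was thus tested only through the clone, and the pals count and median were not taken without such genes.

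Across the family, cbp-1 against the empty vector gave 84 fbxa genes called higher and 18 lower of 169 (edgeR quasi-likelihood test, Benjamini-Hochberg adjusted p below 0.05 over all genes). Among all tested genes 58.7% were called, 30.2% higher and 28.5% lower. The members' median log2 change was 0.41, against 0.02 over all tested genes, and 49 of those called higher and 11 of those called lower had changed at least 2-fold. Adding the cbp-1 clone to cco-1 gave 62 higher and 25 lower (47.2% of all tested genes were called, 21.9% higher and 25.3% lower), with a median of 0.20 against -0.02. Adding it to mrps-5 gave 67 higher and 20 lower (42.8% of all tested genes, 19.4% and 23.4%), with a median of 0.23 against -0.01. The 3 comparisons share no library.

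Some members could enter these counts only because the cbp-1 clone raised them. In 11 of the 169, fewer than 3 libraries without the clone reached the filter's cutoff. These were fbxa-7, fbxa-44, fbxa-47, fbxa-73, fbxa-75, fbxa-86, fbxa-96, fbxa-137, fbxa-161, fbxa-165 and fbxa-174, named for this reason, and all but fbxa-44 were called under cbp-1. Without them, 74 members were called higher and 18 lower against the empty vector, with a median of 0.33, while 29.6% and 29.2% of all genes chosen the same way were. In the cco-1 mixture the same count was 55 higher and 25 lower (21.4% and 26.0% of all genes so chosen) with a median of 0.14, and in the mrps-5 mixture 58 higher and 20 lower (18.9% and 24.0%) with a median of 0.20. Lowest among the tested members was fbxa-161 at a mean of 0.198 CPM, and highest among the untested was fbxa-171 at 0.196 CPM. Besides fbxa-75, the members nearest to absence without the clone were fbxa-86, with 1 read under the empty vector and 55 under cbp-1 (ratio 48.8, 8.40 to 1963), and fbxa-7, with 5 and 135 reads. fbxa-86 held no read in the 3 cco-1 libraries and 62 in those of the mixture, which is at least 17.0-fold at a floor of 3 reads over the group. These last pair were chosen after their values were seen.

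**Figure D2:**
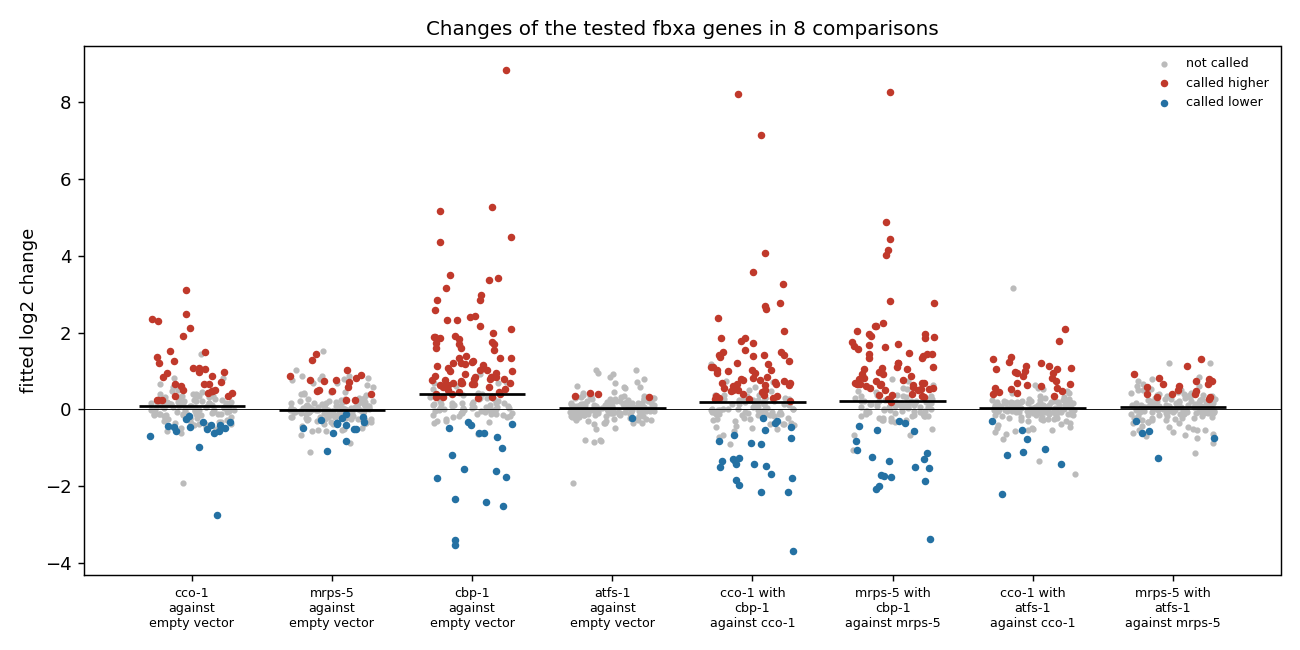
Fitted log2 change (y axis) of the 169 tested fbxa genes (points) in 8 comparisons (x axis), coloured by call at an edgeR adjusted p below 0.05, with the median of the tested members as a bar. The comparisons that add the cbp-1 clone hold 84, 62 and 67 members called higher, and the medians there are 0.41, 0.20 and 0.23.

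The members called in the 3 cbp-1 comparisons overlapped. In all of them 52 members were called higher (30.8% of those tested, against 13% of all tested genes) and 11 lower (6.51% against 15.7%), and 49 were called in none (29% against 28%). Without the 11 members tested only through the cbp-1 clone, 46 were higher in all 3 (29.1%, against 12.5% of all genes chosen the same way), 11 lower (6.96% against 16.1%) and 48 called in none (30.4% against 27.7%). Of the 84 called higher against the empty vector, 57 were also called higher in the cco-1 mixture (67.9% of the first list and 91.9% of the second) and 64 in the mrps-5 mixture (76.2% and 95.5%). Of the 62 and 67 called higher in the mixtures, 53 were shared. As a description, the log2 changes of the 169 members correlated with Pearson's r of 0.850 (cbp-1 alone with the cco-1 mixture), 0.919 (alone with the mrps-5 mixture) and 0.924 (between mixtures), and Spearman's rho was 0.733, 0.822 and 0.851. Without those 11 members Pearson's r was 0.777, 0.882 and 0.912, against 0.794, 0.809 and 0.895 over all genes chosen the same way. These points are genes of shared families and libraries, not independent replicates.

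**Figure D3:**
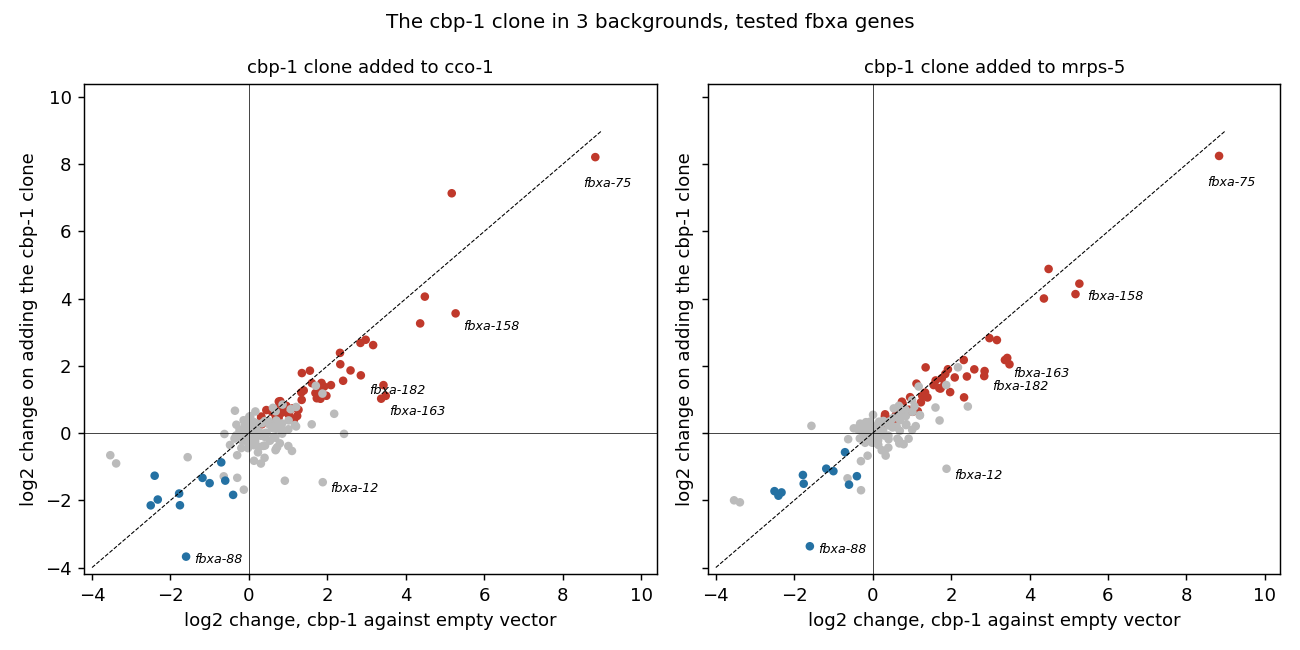
Log2 change of each tested fbxa gene under cbp-1 against the empty vector (x axis) and on adding the cbp-1 clone to cco-1 (left) or mrps-5 (right, y axis), with members called higher in all 3 comparisons in red and lower in all 3 in blue, and the line of equality dashed. The 52 red members include fbxa-75, fbxa-158, fbxa-163 and fbxa-182, and in the left panel 119 of the 169 members lie below the line.

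Outside the reported adaptors, fbxa-54 and fbxa-163 were among the members with the clearest rise. fbxa-54 (chromosome III, 956334 to 957901, plus strand) read 6.34, 6.95 and 7.62 CPM under the empty vector and 25.3, 27.2 and 26.5 CPM under cbp-1. Its means went from 6.69 to 17.4 CPM in the cco-1 mixture and from 6.19 to 23.3 CPM in the mrps-5 mixture, and its log2 rises were 1.92 ± 0.08, 1.38 ± 0.08 and 1.90 ± 0.08. The gene stayed within 5.66 to 7.62 CPM in every library without the cbp-1 clone. fbxa-163 (chromosome II, 1609252 to 1610730, minus strand) read 1.16, 1.28 and 1.26 CPM under the empty vector and 13.3, 11.9 and 13.0 CPM under cbp-1, a log2 rise of 3.37 ± 0.13. In the mixtures it reached only 5.26 ± 0.21 CPM with cco-1 (from 2.59 ± 0.30) and 8.34 ± 0.66 CPM with mrps-5 (from 1.86 ± 0.36). fbxa-98 (chromosome IV, 13633407 to 13635223) rose from 3.42 to 8.65 CPM under cbp-1, from 2.61 to 6.03 CPM in the cco-1 mixture and from 2.62 to 6.13 CPM in the mrps-5 mixture. Substrates of these proteins are not known to the sources used here. Chosen after their values were seen, fbxa-66 rose from 0.33 to 6.86 CPM under cbp-1, fbxa-135 from 0.76 to 5.89 CPM and fbxa-156 from 2.91 to 14.6 CPM.

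fbxa genes lie in physical clusters, and in some clusters most tested members were called higher under cbp-1. Of all tested genes, 30.2% were called higher and 28.5% lower in that comparison. With starts no more than 20 kb apart, 164 of the 222 members fell into 32 clusters of 2 or more genes. On chromosome II, the 9 genes between 1606595 and 1624672, which include fbxa-158, fbxa-162, fbxa-163 and fbxa-166, had 7 tested members, and all 7 were called higher under cbp-1 (median log2 change 3.37). Of these, fbxa-161 and fbxa-165 were tested only through the clone, and without them 5 of 5 were higher (median 3.43). On chromosome III, the 17 genes between 2217173 and 2314035 had 15 tested members, of which 11 were called higher and 0 lower (median 1.35), or 8 higher of 12 without fbxa-7, fbxa-47 and fbxa-73 (median 0.94). The largest cluster, 33 genes between 1236015 and 1349450 of chromosome III that include fbxa-75, had 26 tested members with 19 higher and 1 lower (median 1.07). Without fbxa-75 these were 18 and 1 of 25 (median 1.01). The other clusters of 5 or more genes had 5 higher and 0 lower of 10 tested from 933422 on chromosome III (median 0.46). On chromosome V they had 1 and 1 of 5 from 16125794 (-0.02) and 2 and 0 of 4 from 16889275 (0.51). Further along came 3 and 2 of 5 from 17319596 (0.92) and 1 and 1 of 4 from 17547383 (-0.17). The last had 1 and 0 of 5 from 17637982 (0.12). Without fbxa-44 the count from 16889275 was 2 and 0 of 3, and without fbxa-174 that from 17547383 was 0 and 1 of 3. By chromosome, 40 of 60 tested members on III and 12 of 18 on II were called higher under cbp-1, but 24 of 65 on V, 3 of 13 on I and 3 of 9 on X. Of the protein-coding members 74 of 132 were called higher (median 0.60), and of the pseudogenes 10 of 37 (median 0.12). Leaving out the members tested only through the clone, these counts were 36 of 56 on III, 10 of 16 on II, 22 of 62 on V, 3 of 13 on I and 2 of 8 on X, and 65 of 122 protein-coding members and 9 of 36 pseudogenes. These are counts over members that share sequence and neighbourhood, with no test of the difference between classes. Genes with near-identical copies may share or lose reads in counting, 24 tested members share exon bases with another gene, and the sources used here do not say whether strand was used.

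A smaller number of members fell when the cbp-1 clone was present. Those called lower in all 3 comparisons were fbxa-15, fbxa-57, fbxa-74, fbxa-84, fbxa-88, fbxa-99, fbxa-172, fbxa-180, fbxa-190, fbxa-209 and fbxa-216. fbxa-74 (chromosome III, 1696952 to 1698986, minus strand) read 4.90, 5.72 and 5.41 CPM under the empty vector and 3.98, 4.22 and 3.89 CPM under cbp-1. It was far higher under cco-1, at 16.7, 13.6 and 15.4 CPM, and read 4.32, 4.01 and 4.44 CPM once the cbp-1 clone was added. Under mrps-5 it read 9.03, 9.26 and 9.11 CPM, and 3.93, 3.51 and 3.83 CPM with the cbp-1 clone. All 9 libraries with that clone lay below all 18 others. The log2 change was -0.40 ± 0.11 against the empty vector (edgeR adjusted p = 0.00201), -1.84 ± 0.09 in the cco-1 mixture (1.27e-20) and -1.28 ± 0.11 in the mrps-5 mixture (2.25e-13). Chosen after their values were seen, fbxa-88 (chromosome V, 16142008 to 16143116, sharing exon bases with fbxa-18) went from 1.79 CPM under cco-1 to 0.14 CPM with the cbp-1 clone, and fbxa-187 (chromosome V, 17339084 to 17342780, a pseudogene) from 2.39 CPM under the empty vector to 0.23 CPM under cbp-1. The latter shares its cluster on chromosome V, 17319596 to 17352870, with skr-5 (17347902 to 17348723), which rose. The direction differed between comparisons for 3 members, fbxa-12, fbxa-60 and fbxa-166. Of these, fbxa-60 was called higher under cbp-1 alone, at 13.7 against 10.3 CPM (log2 0.40 ± 0.08), and lower when the clone was added to cco-1 (-0.73 ± 0.08) or to mrps-5 (-0.43 ± 0.08).

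Marker lists of other tissues also differed between groups with and without the cbp-1 clone, not all in 1 direction. Of all tested genes, 30.2% were called higher and 28.5% lower under cbp-1 alone. The summed level of the 6 yolk genes (vit-1 to vit-6), which encode yolk proteins made by the adult hermaphrodite intestine, ran from 79205 to 82262 CPM under the empty vector and from 16822 to 18333 CPM under cbp-1, and all 6 were called lower in each cbp-1 comparison. The 6 intestine genes (elt-2, ges-1, act-5, ifb-2, vha-6 and asp-1) summed to 3386 to 3739 CPM under the empty vector and 1864 to 1977 CPM under cbp-1, with 4 called lower and 0 higher. The 5 neuron genes summed to 334 to 348 CPM and 446 to 451 CPM, with 4 called higher and 0 lower. Sperm genes had 18 of 33 tested called higher and 0 lower under cbp-1 (sums of 437 to 463 CPM and 522 to 528 CPM, 1 of 38 listed genes at 0 in the empty vector group). In the mixtures they went the other way, with 1 higher and 21 lower on adding the clone to cco-1 (428 to 469 CPM and 338 to 355 CPM). On adding it to mrps-5, 1 was higher and 8 lower (438 to 448 CPM and 367 to 410 CPM). Of all tested genes, 25.3% were called lower in the cco-1 mixture and 23.4% in the mrps-5 mixture, where the sperm count was near that share. Under cbp-1 alone, the remaining marker lists had body wall muscle 0 higher and 4 lower of 5 (7220 to 7362 CPM and 5957 to 6316 CPM), oocyte and early embryo 1 and 6 of 11 (8645 to 8930.0 CPM and 7827 to 8138 CPM), and hypodermis and molting 2 and 0 of 7 (193 to 198 CPM and 191 to 218 CPM). On adding the clone, the oocyte and early embryo list had 1 higher and 2 lower with cco-1, and 4 higher and 0 lower with mrps-5. No yolk, intestine or neuron gene was at 0 in all libraries of a group. Reads aligned at several sites, which were not counted on genes, made up 14.8% of reads under the empty vector and 7.96% under cbp-1, 12.7% under mrps-5 and 8.75% with the cbp-1 clone added, and 8.19% under cco-1 and 7.24% with the cbp-1 clone added. The part of these in the fbxa changes was not tested. In whole-worm RNA, fewer cells of a type and less RNA per cell cannot be told apart.

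The other large F-box families are set beside the fbxa genes as a description. Of 92 tested fbxb genes, 78 were called lower and 0 higher under cbp-1 (median log2 change -1.46), 19 lower and 1 higher when the clone was added to cco-1 (median -0.34), and 19 lower and 2 higher when it was added to mrps-5 (median -0.44). The 36 tested fbxc genes split, with 7 called higher and 17 lower under cbp-1. Of all tested genes, 30.2% were called higher and 28.5% lower under cbp-1. In the cco-1 mixture these shares were 21.9% and 25.3%, and in the mrps-5 mixture 19.4% and 23.4%. The fbxb counts called lower in the mixtures did not exceed these shares. In all 3 comparisons, 52 of 169 fbxa, 0 of 92 fbxb, 4 of 36 fbxc and 25 of 34 pals genes were called higher, against 13% of all tested genes. Called lower in all 3 were 11 fbxa, 8 fbxb, 4 fbxc and 0 pals genes, against 15.7% of all tested genes. The fbxa and pals counts include genes tested only through the clone. The math genes, whose MATH domain is found in adaptors of other ubiquitin ligases, had 21 of 33 tested members called higher and 3 lower under cbp-1. For the bath genes, which encode BTB and MATH domain adaptors for the cullin CUL-3, the counts were 12 and 4 of 42. Among 10 genes of cullin deneddylation and regulation, 3 were called higher and 0 lower under cbp-1. The bath and deneddylation counts called higher lie near the 30.2% of all tested genes. In all 3 comparisons, 19 of 33 math and 5 of 42 bath genes were called higher, and 2 math and 2 bath genes lower. These counts have no test of the difference between families.

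**Figure D4:**
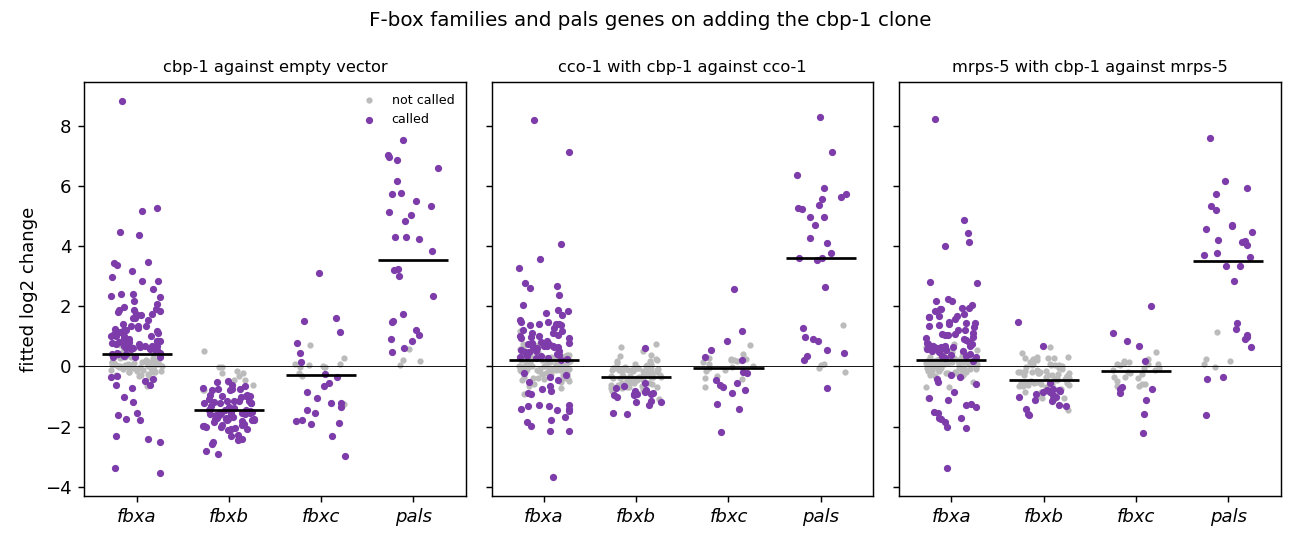
Fitted log2 change (y axis) of the tested fbxa, fbxb, fbxc and pals genes (points, purple where called at an edgeR adjusted p below 0.05) in the 3 comparisons that add the cbp-1 clone, with the median of each family as a bar. Under cbp-1 alone the medians are 0.41 for fbxa, -1.46 for fbxb, -0.27 for fbxc and 3.55 for pals. The fbxa and pals points include genes tested only through the cbp-1 clone.

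Against the empty vector, cco-1 gave 35 fbxa genes called higher and 17 lower (45.3% of all tested genes were called, 23.1% and 22.2%), which is 20.7% and 10.1% of the members. With the library-set term 11 were higher and 5 lower, 16 of 169 members while 16.4% of all tested genes were called, and 14 members kept their direction and call across the fits. fbxa-74, described above, rose by 1.51 ± 0.09 (1.16 with the term, edgeR adjusted p = 1.72e-07). fbxa-72 (chromosome V, 674886 to 676753, minus strand) read 18.9, 20.0 and 18.8 CPM under the empty vector and 10.7, 9.14 and 9.50 CPM under cco-1, without overlap, a log2 change of -0.97 ± 0.08 (-0.92 with the term, edgeR adjusted p = 7.34e-09). fbxa-166 (chromosome II, 1616829 to 1619048) went from 0.89 to 4.39 CPM, a log2 rise of 2.29 ± 0.19 that was 1.27 with the term and then not called (edgeR adjusted p = 0.235). The rise of fbxa-158, 1.22 ± 0.20, was likewise 0.84 with the term and not called (adjusted p = 0.263).

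Under mrps-5, 17 members were called higher and 15 lower against the empty vector (19% and 18.9% of all tested genes). With the term these were 3 and 4 while 9.75% of all tested genes were called, and 6 in all kept their direction and call. Set directly against cco-1, within 1 library set, mrps-5 had 5 members called higher and 17 lower (6.74% and 5.02% of all tested genes). fbxa-166 was lower by 1.47 ± 0.17 on the log2 scale, at 1.60 against 4.39 CPM, and fbxa-74 lower by 0.74 ± 0.08, at 9.13 against 15.2 CPM. fbxa-72 was higher under mrps-5, at 15.8 against 9.79 CPM (log2 0.69 ± 0.08). Without the first cco-1 library 14 members were called in place of 22.

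The libraries labelled atfs-1 RNAi alone differed little from the empty vector in fbxa expression. Of 169 members, 4 were called higher and 1 lower (5.54% and 5.24% of all tested genes), namely fbxa-55, fbxa-74, fbxa-182 and fbxa-69 (the last named after its value was seen) above and fbxa-206 below, with log2 changes between -0.22 and 0.43. With the library-set term edgeR called 0, with 11 members at an unadjusted p below 0.05, and with only these groups fitted it called 0, with 19 such members. Leaving out 1 library gave between 0 and 14 calls, and DESeq2 gave 3.

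Added to cco-1, the atfs-1 clone gave 30 members called higher and 8 lower (8.97% and 11.5% of all tested genes), with a median log2 change of 0.04 against 0 over all genes. fbxa-30 (chromosome III, 1274425 to 1275613, minus strand) read 0.897, 0.906 and 1.09 CPM under cco-1 and 3.87, 3.90 and 4.71 CPM in the mixture, a log2 rise of 2.10 ± 0.17 (edgeR adjusted p = 5.20e-13). fbxa-98 went from 2.85, 2.48 and 2.50 CPM to 6.84, 6.18 and 6.50 CPM (1.31 ± 0.11, adjusted p = 6.56e-13). The libraries of these genes did not overlap between the groups. fbxa-55 (chromosome III, 933422 to 936087, minus strand) went from 3.90, 5.32 and 4.29 CPM to 8.54, 9.09 and 9.02 CPM (0.98 ± 0.09), fbxa-60 (chromosome III, 944733 to 946300, minus strand) from 14.3 to 21.8 CPM (0.61 ± 0.07), and fbxa-182 from 21.5 to 41.0 CPM (0.94 ± 0.06). In the other direction, fbxa-166 went from 4.45, 4.02 and 4.71 CPM to 0.935, 1.12 and 0.817 CPM (-2.20 ± 0.19, adjusted p = 1.33e-12) against 0.89 CPM under the empty vector. Chosen after their values were seen are fbxa-8 and its neighbour fbxa-12, which shares exon bases with srd-65. fbxa-8 read 0.34 CPM under cco-1 and 1.17 CPM in the mixture, and fbxa-12 0.70 and 1.45 CPM. The former, a pseudogene, was tested only through these libraries and is kept among the tested members counted above.

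**Figure D5:**
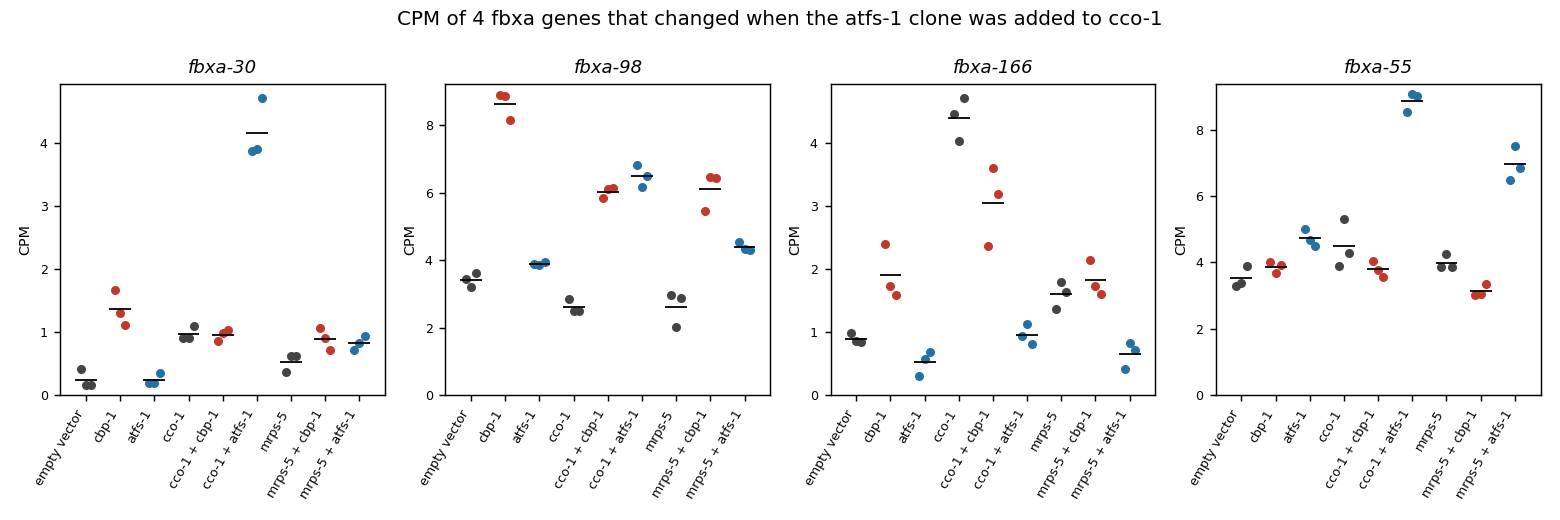
CPM (y axis) of fbxa-30, fbxa-98, fbxa-166 and fbxa-55 in each library (points), by RNAi group (x axis), with the group mean as a bar, and groups that hold the cbp-1 clone in red and the atfs-1 clone in blue. fbxa-30 stood at 3.87 to 4.71 CPM in the mixture of cco-1 with atfs-1 and at 1.67 CPM or less elsewhere, and fbxa-166 was at 4.02 CPM or more under cco-1 and at 1.12 CPM or less in the mixture with atfs-1.

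In the mrps-5 mixture, the atfs-1 clone gave 19 members called higher and 5 lower (6.85% and 9.98% of all tested genes). Of the genes above, fbxa-55 rose by 0.80 ± 0.10 on the log2 scale, fbxa-98 by 0.73 ± 0.12, fbxa-182 by 0.61 ± 0.07 and fbxa-60 by 0.49 ± 0.07. fbxa-166 fell, from 1.60 ± 0.22 to 0.65 CPM. fbxa-30 went from 0.53 to 0.83 CPM and was not called. fbxa-75 was at 1 read in each atfs-1 mixture. The ligase gene cul-6 went from 7.94 to 12.5 CPM when the atfs-1 clone joined cco-1 and from 7.56 to 9.91 CPM when it joined mrps-5, and was called higher in each. Of the 7 genes of the ligase list, 6 were called higher and 0 lower with cco-1 (median log2 change 0.69). With mrps-5 these were 4 and 0 (median 0.38). Of all tested genes, 8.97% and 6.85% were called higher in these comparisons. The cbp-1 and atfs-1 mixtures of a clone share its cco-1 or mrps-5 libraries. Side by side, fbxa-60 was lower with the cbp-1 clone and higher with the atfs-1 clone, at 8.59 and 21.8 CPM against 14.3 CPM under cco-1, and at 9.07 and 17.2 CPM against 12.2 CPM under mrps-5.

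The cbp-1 clone alone and the clone in a mixture differed in size for several members. The cco-1 by cbp-1 interaction, which takes the log2 change on adding the clone to cco-1 minus that against the empty vector, was called for 34 members below 0 and 4 above (15.2% and 9.63% of all tested genes), with a median of -0.28. The mrps-5 by cbp-1 interaction was called for 22 below 0 and 7 above (15.5% and 8.12%), with a median of -0.13. Among the named members, the called cco-1 differences farthest from 0 were -2.45 ± 0.39 on the log2 scale for fbxa-30, -2.38 ± 0.27 for fbxa-162 and -2.35 ± 0.20 for fbxa-163. In the fbxb family these interactions were called above 0 for 34 and 29 of 92 genes and below 0 for 0, the reverse of the fbxa direction. The change alone was measured within the low rpl-37 set, and the changes in the mixtures within the other set. The share of cbp-1 clone alone is also not given. Library set, dose and background therefore cannot be told apart here. At a like 25% share, the difference between the mrps-5 and the cco-1 arm was called for 9 members, all with a more positive change in the mrps-5 arm (5.49% of all tested genes were called, 1.91% in that direction and 3.58% in the other). Those named are fbxa-27, fbxa-54, fbxa-74, fbxa-82, fbxa-158, fbxa-162 and fbxa-163.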

How the data were processed

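The authors deposited unscaled read counts per gene for 27 poly(A) libraries (3 in each of 9 RNAi groups), made, per the submitters' processing notes, on WBcel235 with STAR 2.6.0a and HTSeq 0.10.0. Use of strand is not given in the sources used. Summary lines held 8.71% to 17.0% of reads and were left out. Genes kept by filterByExpr (minimum count 10) were fitted in edgeR 4.0.16 (R 4.3.3) with TMM factors and a robust quasi-likelihood fit over all libraries. A call is a Benjamini-Hochberg adjusted p below 0.05 over all 16435 tested genes of a comparison. The 12 comparisons included 2 interactions and a difference between arms. CPM are on the TMM scale. The steps were tested on simulated data.

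The members, gene lists and tests were chosen with earlier results of these data known. Named members are fbxa-75, fbxa-158, fbxa-182, up to 4 called members with the smallest adjusted p per comparison at a mean of 1 CPM or more, and the 3 most abundant. Pathway lists were matched through the reference name table, in which fbxa-40 is now fbxa-41. Same-numbered replicates did not deviate together (correlations -0.111 to 0.0322), so numbers were not used as pairs. Alternatives were RLE scaling, DESeq2 1.42.0, other filters, only the groups compared, a replicate block, a library-set term and leaving out each library. Counting intervals and floors cover counting error only. Counts give the depth of each value.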

Additional observations from a re-analysis of the deposited data

Results flagged for a closer look

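The difference between adding the cbp-1 clone to cco-1 and giving it alone was tested by an interaction term (edgeR, adjusted over all genes), and 13 named members passed. Some members were named for a small adjusted p in these same interactions, so this count is no result about the family. Of all 169 tested members, 22.5% were called, against 24.9% of all tested genes. For mrps-5 the shares were 17.2% and 23.6%. The log2 difference was -2.45 for fbxa-30 (adjusted p = 3.56e-06), -2.38 for fbxa-162 (2.57e-09), -2.35 for fbxa-163 (3.76e-12), -1.71 for fbxa-158 (3.28e-08), -1.63 for fbxa-166 (5.93e-06), -1.44 for fbxa-74 (2.36e-10), -1.39 for fbxa-82 (5.76e-05), -1.14 for fbxa-182 (5.79e-13), -1.13 for fbxa-60 (6.03e-11), -1.03 for fbxa-14 (0.00134), -0.76 for fbxa-27 (0.00425) and -0.54 for fbxa-54 (0.000388), and above 0 at 0.60 for fbxa-72 (4.95e-05). For mrps-5, the same term was -1.63 for fbxa-30 (0.00504), -1.44 for fbxa-162 (0.000333), -1.40 for fbxa-14 (7.33e-05), -1.20 for fbxa-163 (5.12e-05), -1.01 for fbxa-182 (7.04e-11), -0.89 for fbxa-166 (0.0312), -0.88 for fbxa-74 (3.15e-05), -0.83 for fbxa-60 (2.73e-07), -0.82 for fbxa-158 (0.0120) and -0.49 for fbxa-55 (0.0253), and above 0 at 0.44 for fbxa-72 (0.00156) and 0.14 for fbxa-215 (0.0475). That of fbxa-158 was -0.64 and not called without the first empty vector library (adjusted p = 0.0969). Leaving out 1 library also ended the mrps-5 calls of 3 members. fbxa-166 lost its call without the second or the third empty vector, the first cbp-1, the second or the third mrps-5 or the second or the third mixture library (adjusted p 0.0596 to 0.127). fbxa-55 lost it without the first or second empty vector, the first cbp-1, the second mrps-5 or the first or second mixture library (0.0501 to 0.0678). fbxa-215 lost it without the second or the third empty vector, any 1 cbp-1, the second or the third mrps-5 or the third mixture library (0.0650 to 0.247). Group means lie behind these terms: fbxa-182 reached 60.2 CPM under cbp-1, 70.7 CPM under cco-1 with cbp-1 and 55.3 CPM under mrps-5 with cbp-1, but started from 8.31, 21.5 and 15.3 CPM. The interactions share the empty vector and cbp-1 libraries, which lie in the low rpl-37 set, while the mixtures and their cco-1 or mrps-5 groups lie in the other. Library set, background and a differing share of cbp-1 clone between alone and mixture cannot be told apart.

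For some named members, partly chosen by this same test, the change on adding the cbp-1 clone also differed between the mrps-5 and the cco-1 arm. Of all 169 tested members, 5.33% were called, against 5.49% of all tested genes. The change was more positive in the mrps-5 arm by 1.37 on the log2 scale for fbxa-82 (edgeR adjusted p = 0.000694), 1.15 for fbxa-163 (6.18e-05), 0.96 for fbxa-27 (0.00268), 0.94 for fbxa-162 (0.00657), 0.88 for fbxa-158 (0.00380), 0.56 for fbxa-74 (0.0125) and 0.52 for fbxa-54 (0.00316). The call of fbxa-74 was lost without the first library of mrps-5 with cbp-1 (adjusted p = 0.0556). fbxa-82 had 1.42 and 1.09 CPM without and with the clone in the cco-1 arm, and 0.83 and 1.67 CPM in the mrps-5 arm.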

How the results depend on the processing

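With the library-set term, the members called fell to 16 for cco-1 against the empty vector (from 52), 7 for mrps-5 (from 32) and 0 for atfs-1 (from 5); the term absorbs what differs between the sets, which the groups cross. For atfs-1, fitting only the groups compared gave 0 and DESeq2 3, and the cause was not tested. No other count moved by over 1.5 times under RLE scaling, no filter, a stricter filter, only the groups compared, a replicate block or DESeq2. Leaving out 1 library gave 41 to 52 calls for cco-1 against the empty vector, 18 to 27 for mrps-5 (18 without the second mrps-5 library), 96 to 101 for cbp-1 and 0 to 14 for atfs-1. For additions of the cbp-1 clone it gave 80 to 84 with cco-1 and 77 to 84 with mrps-5, and for those of atfs-1 30 to 35 and 16 to 24. It gave 14 to 19 for mrps-5 against cco-1, 34 to 43 and 20 to 26 for the interactions with cco-1 and mrps-5, and 7 to 9 for the difference between arms. A replicate block, though the numbers did not pair the samples, gave 102 calls for cbp-1 against the empty vector and 85 against 87 in the cco-1 mixture. The expressed members number 215 with no filter and 137 at 1 CPM in 3 libraries.

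Of 132 called results of named members under 1908 alternatives, 1771 kept direction and call, 135 lost the call and 2 reversed. Those were fbxa-166 (-0.20) and fbxa-206 (0.028) under mrps-5 against the empty vector with the library-set term. Depth limits members near absence, such as fbxa-75 outside the cbp-1 clone groups.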
